A study of Homo sapiens with 6 samples.

Results

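The 55 genes described here encode the machinery that copies DNA and the regulators that take a cell from G1 into S phase. They were chosen by a fixed list of symbols, covering origin recognition, licensing, the replicative helicase, polymerases, the sliding clamp, nucleotide synthesis, fork protection and the E2F and cyclin E regulators. The list was drawn up with earlier results of these data known. All 55 were found among the 58735 gene identifiers of the series. RNA-seq was performed on 6 libraries of SK-N-AS, an established human neuroblastoma line, after transfection with a negative control siRNA (NC) or with siRNA against Prp19 (siPrp19), for 72 h according to the sample labels, whereas the study's methods give a shorter time. Prp19, the product of PRPF19, is a ubiquitin ligase that acts in the spliceosome. Knockdown was transient and used a single siRNA in a single cell line, and no library of untransfected cells was analysed here.

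In each cell cycle, the origin recognition complex, CDC6 and CDT1 load the MCM2-7 helicase onto DNA in G1. At the G1/S transition, CDC45 and the GINS complex switch the helicase on, primase and the polymerases copy both strands, and PCNA, loaded by replication factor C, holds the polymerases on DNA. E2F transcription factors drive many of these genes when cells enter S phase, so that their mRNAs rise and fall with the cell cycle.

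Libraries are named by the value column of the deposited table, because the group in the label conflicts with the column for 2 of them. A library's label is here that of the sample its table was deposited under. By this, NCa and NCc were labelled NC, and siPrp19a and siPrp19c were labelled siPrp19. The table in column NCb was deposited under a siPrp19 sample and the table in column siPrp19b under an NC sample. In the sample descriptions, however, NCb names a different sample, which is an NC sample, and siPrp19b names a different sample, which is a siPrp19 sample. PRPF19 was at 83.0, 83.1 and 93.0 FPKM (reads scaled to exon length and library size) in NCa, NCb and NCc, and at 19.6, 19.1 and 18.5 FPKM in siPrp19a, siPrp19b and siPrp19c. The target was therefore high in the library labelled siPrp19 whose column is NCb, and low in the library labelled NC whose column is siPrp19b. The list was compared in 3 ways. These were by column name with 3 libraries a group, in the 4 libraries whose label and column give the same group, 2 a group, and by label with 3 a group. Of the 4 libraries, NCa and siPrp19c also match in replicate number, but NCc and siPrp19a match by group only. NCc is replicate 3 by column and 2 by label, and siPrp19a is replicate 1 by column and 2 by label. Values per gene are given by column name and, for the genes called or described by library, in the 4 libraries; by label each of the 55 genes had an adjusted p of 1.00. PRPF19 was lower in siPrp19 by column name (log2 fold change -2.12 ± 0.07, SE, adjusted p = 0.000215) and in the 4 libraries (-2.15 ± 0.14, adjusted p = 0.0266), but not by label (-0.74, adjusted p = 1.00).

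The libraries held 14887132 to 19977811 gene-assigned reads. Mitochondrial transcripts made up 5.15% to 5.49% of reads in 5 libraries and 8.29% in siPrp19a. NCa and NCb were far closer to each other than other pairs (chi-square per gene 1.75), as were siPrp19b and siPrp19c (2.85), while the other 13 pairs ranged from 21.5 to 56.5. Neither close pair agreed within sampling noise, but whether its libraries are independent replicates is not known. The SD, SE and p values by column name count 3 replicates a group, and would understate the variation if they are not. HAND2, a transcription factor of the sympathetic lineage, stood at 117 to 170 FPKM (log2 fold change by column name -0.32, adjusted p = 0.101), whereas TH, the rate-limiting enzyme of catecholamine synthesis, was at 0.312 to 0.662 FPKM. VIM and FN1, mesenchymal markers, were also abundant, and of the blood markers PTPRC was at 16.9 to 30.7 FPKM (log2 fold change -0.63, adjusted p = 0.0202 by column name) while CD3E and HBB were at 0 in all 6 libraries and HBA1 was at 0 in 5. The epithelial and endothelial markers EPCAM, CDH1, KRT5, KRT14, PECAM1, CDH5 and VWF were each below 1 FPKM in every library. The part of siPrp19a's mitochondrial share and of PTPRC in the results below was not tested.

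By column name, 10 of the 55 genes were lower in siPrp19 and 0 were higher, at an adjusted p under 0.05 over all 13718 genes tested. Over all genes 5.37% were called lower and 2.57% higher. The 10 were TYMS, TK1, GINS4, MCM10, PRIM2, POLA2, RFC5, RPA1, TIMELESS and UHRF1. The log2 fold change was negative for 45 of the 55 genes, against 54% of all genes, and its median was -0.21, against -0.02 over all genes. The 3 siPrp19 columns lay below all 3 NC columns for 30 of the 55 genes (18.1% of all genes), and above them for CCNE2 and CDC25A alone (13.2% of all genes). Unadjusted p values under 0.05 were found for 28 genes that were lower and 2 that were higher, against 14.4% and 9.20% of all genes. In bulk RNA, fewer cells in S phase and less of each mRNA per cell cannot be told apart.

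In the 4 libraries whose records agree on the group, 0 of the 55 genes passed the limma test, beside 0.0146% of all genes. At an unadjusted p under 0.05, 13 were lower and 0 higher (7.86% and 4.42% of all genes). With 2 libraries a group the median log2 fold change of the list was -0.22, and 43 genes were negative. The siPrp19 libraries lay below both NC libraries for 34 of the 55 (24.8% of all genes) and above them for 4 (19.2% of all genes). When whole reads recovered from the FPKM values were tested with limma-voom, TYMS and GINS4 were called lower and 0 of the 55 higher in these 4 libraries (1.17% and 0.758% of all genes). By label, 0 genes of the whole table were called, 191 of 13718 had an unadjusted p under 0.05, and the median of the list was -0.09; RPA3, a subunit of the single-strand binding protein, was the only listed gene whose labelled groups did not overlap (lower in siPrp19; 2.51% of all genes were lower and 2.11% higher without overlap).

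**Figure D1:**
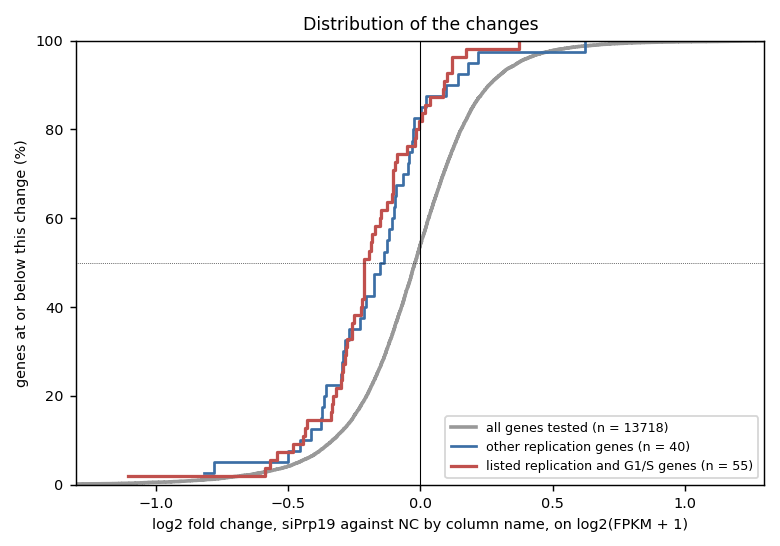
Cumulative share of genes (vertical axis, %) against the log2 fold change of siPrp19 over NC by column name, on log2(FPKM + 1), for all 13718 genes tested, the 55 listed genes and 40 other replication genes. The curve of the 55 genes lies left of that of all genes, with medians of -0.21 and -0.02.

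The comparison by column name was repeated with each close pair averaged to a single library, an alternative chosen after the data were seen. Then 0 of the 55 genes and 2 genes in all passed (0.0146%); 10 of the 55 were lower and 1 higher at an unadjusted p under 0.05 (7.89% and 4.56% of all genes), and TYMS was at -1.13 (adjusted p = 0.0974). Leaving out siPrp19c or NCa left only TYMS called among the 55, and leaving out NCb or siPrp19b left TYMS and GINS4. Without NCc, 9 genes of the list were called, with POLA2 and RPA1 lost and RFC3 gained, and without siPrp19a 9 were called, with POLA2 and TIMELESS lost and RRM1 gained. Over 14 alternative settings TYMS was called in 13, GINS4 in 11, MCM10, PRIM2 and RFC5 in 9, TK1 and UHRF1 in 8, POLA2 in 4 and RPA1 and TIMELESS in 2.

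TYMS (thymidylate synthase, which makes the thymidine nucleotide that only DNA uses) showed the largest change of the list. It was at 17.0, 17.9 and 17.8 FPKM in NCa, NCb and NCc and at 7.02, 8.17 and 7.75 FPKM in siPrp19a, siPrp19b and siPrp19c. The groups by column were far apart, and the library siPrp19b, labelled NC, sat with the other siPrp19 columns. Mean TYMS fell from 17.6 ± 0.504 to 7.65 ± 0.580 FPKM (SD, n = 3), a log2 fold change of -1.10 ± 0.07 (SE, adjusted p = 0.00182). In the 4 libraries it was -1.13 (adjusted p = 0.0819), and by label -0.41 (adjusted p = 1.00). TYMS (ENSG00000176890) lies on the plus strand at chr18:657604-673578 (GRCh38), and 46.6% of its exon bases lie opposite exons of ENOSF1 and TYMSOS; it also has 2 named pseudogenes. ENOSF1 was at 2.25 to 2.81 FPKM with a log2 fold change of -0.13 (adjusted p = 0.412). Strand use in the counting is not given in the sources used here, so reads from opposite strands cannot be told apart.

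The other genes of nucleotide synthesis had lower means as well, and for all 4 the columns did not overlap (18.1% of all genes were lower without overlap). TK1 (thymidine kinase, the salvage route to the same nucleotide) was at 95.4, 100 and 121 FPKM in NCa, NCb and NCc and at 71.2, 73.1 and 66.9 FPKM in siPrp19a, siPrp19b and siPrp19c. NCc was the highest library, and each siPrp19 column was below each NC column. TK1 fell by 0.57 ± 0.10 on the log2 scale (adjusted p = 0.0224), with -0.63 in the 4 libraries (adjusted p = 0.242). Ribonucleotide reductase, which supplies deoxynucleotides, showed smaller differences that did not pass. RRM2, its S-phase subunit, was at 13.2, 12.3 and 12.9 FPKM in the NC columns and 11.5, 11.9 and 10.9 FPKM in the siPrp19 columns (log2 fold change -0.15 ± 0.07, adjusted p = 0.233; -0.20 in the 4 libraries, adjusted p = 0.557). RRM1, the large subunit, had a log2 fold change of -0.28 (adjusted p = 0.123). All 4 were negative in both comparisons under each of the 4 scalings tried.

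**Figure D2:**
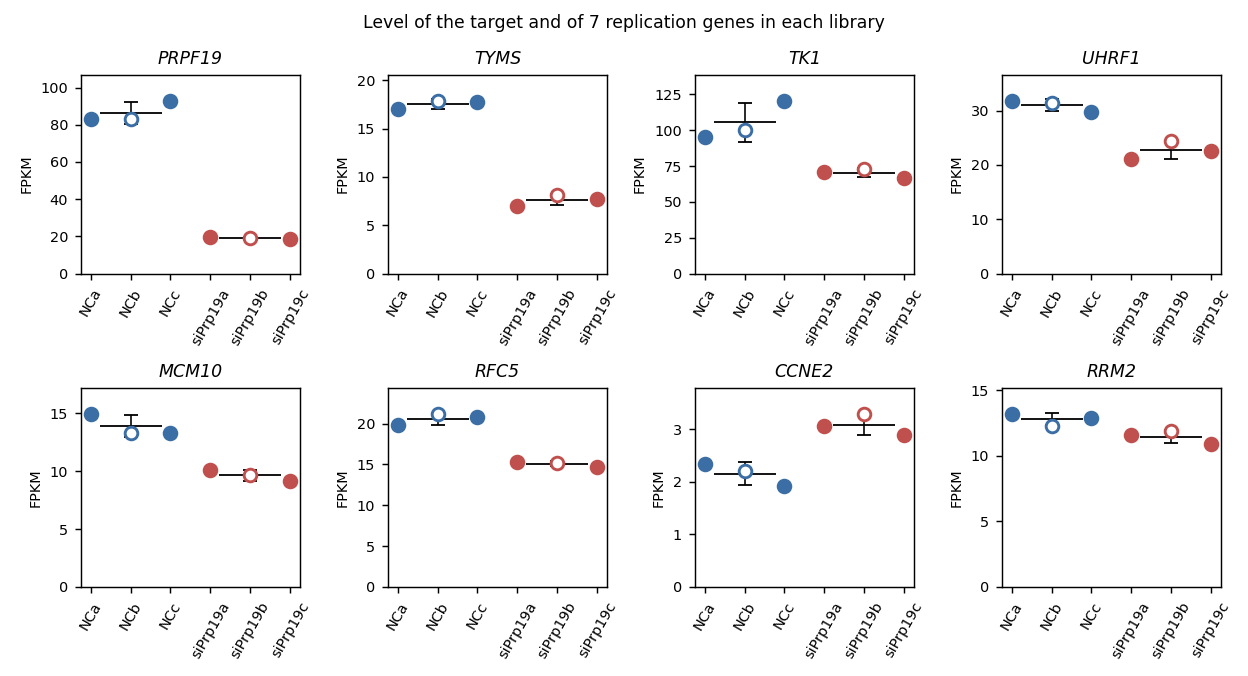
FPKM (vertical axis, from 0) of PRPF19 and 7 replication genes in each library, by column name; blue is NC, red is siPrp19, hollow circles mark the libraries labelled as the opposite group, and black bars show the mean and SD of 3. In the panels of TYMS, TK1, UHRF1, MCM10, RFC5 and RRM2 each red point is below each blue point, and in that of CCNE2 each is above.

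Among the genes that switch the helicase on, GINS4 and MCM10 were called lower (5.37% of all genes were). All 6 were negative under each scaling, while 54% of all genes were negative by column name. GINS4, a subunit of the GINS complex, was at 4.61, 4.16 and 4.59 FPKM in NCa, NCb and NCc and at 2.65, 3.03 and 2.56 FPKM in siPrp19a, siPrp19b and siPrp19c. The columns did not overlap, and the change was -0.54 ± 0.08 (adjusted p = 0.0131), with -0.64 in the 4 libraries (adjusted p = 0.144). A limit for GINS4 is that 23.6% of its exon bases lie opposite exons of GPAT4-AS1 and of an unnamed gene. MCM10, which is needed to start unwinding, was at 15.0, 13.3 and 13.3 FPKM in the NC columns and at 10.1, 9.65 and 9.15 FPKM in the siPrp19 columns. All siPrp19 columns were again below the NC columns, with a log2 fold change of -0.48 ± 0.07 (adjusted p = 0.0137; -0.51 in the 4 libraries, adjusted p = 0.208). CDC45 (-0.25, adjusted p = 0.0554) and GINS1 (-0.28, adjusted p = 0.0888) did not overlap between the columns but did not pass, and GINS2 and GINS3 overlapped.

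For the MCM2-7 helicase, which unwinds the template, 0 of 6 subunits passed. By column name 6 had a negative log2 fold change and 5 were lower without overlap (54% and 18.1% of all genes). Their median was -0.23, within a range of -0.30 for MCM7 to -0.11 for MCM6. MCM7 was at 67.7, 66.1 and 76.0 FPKM in NCa, NCb and NCc and at 53.1, 60.7 and 56.1 FPKM in siPrp19a, siPrp19b and siPrp19c (adjusted p = 0.0911; -0.39 in the 4 libraries, adjusted p = 0.368). MCM2 was at 24.7, 23.9 and 22.3 FPKM and at 20.1, 20.8 and 18.0 FPKM in the same order (log2 fold change -0.26 ± 0.08, adjusted p = 0.103; -0.29 in the 4 libraries, adjusted p = 0.451). For both subunits each siPrp19 column was below each NC column, but neither passed. MCM6 was the subunit that overlapped, and its sign turned in the 4 libraries under quantile normalization and voom, to at most 0.04. MCM7 and MCM4 were sequenced to 3681 to 5735 reads a library, the deepest coverage of this complex.

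The origin recognition complex, which marks origins, did not move together. Of its 6 subunits 0 passed, 2 were negative (ORC6, -0.33, adjusted p = 0.0900, and ORC2, -0.17, adjusted p = 0.171) and the median was 0.03. ORC1, the subunit whose level follows the cell cycle, was at 10.8, 10.8 and 10.2 FPKM in the NC columns and at 12.0, 11.6 and 10.3 FPKM in the siPrp19 columns, and the groups overlapped (log2 fold change 0.08 ± 0.08, adjusted p = 0.563; 0.08 in the 4 libraries, adjusted p = 0.842). ORC1, ORC3, ORC4 and ORC5 were positive and ORC2 and ORC6 negative in both comparisons under each of the 4 scalings.

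The licensing factors had negative values that did not pass. CDC6, which recruits the helicase to origins, was at 12.3, 12.8 and 12.8 FPKM in the NC columns and at 11.8, 10.5 and 10.8 FPKM in the siPrp19 columns (log2 fold change -0.18 ± 0.07, adjusted p = 0.160; -0.14 in the 4 libraries, adjusted p = 0.666). CDT1, its partner in loading, was at 9.43, 10.1 and 11.8 FPKM and at 8.52, 9.35 and 8.47 FPKM (-0.22 ± 0.09, adjusted p = 0.206; -0.28 in the 4 libraries, adjusted p = 0.489). GMNN (geminin, the inhibitor of CDT1) was at 19.9, 19.4 and 25.3 FPKM and at 18.5, 17.5 and 19.8 FPKM (-0.19 ± 0.11, adjusted p = 0.349; -0.22 in the 4 libraries, adjusted p = 0.611). CDC6 and CDT1 did not overlap between columns, whereas siPrp19c was above NCb for GMNN.

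Among 9 polymerase and primase genes PRIM2 and POLA2 were called lower and 7 were negative (5.37% and 54% of all genes), with a median of -0.10. PRIM2, the large primase subunit, was at 8.27, 8.21 and 9.01 FPKM in NCa, NCb and NCc and at 6.09, 5.02 and 4.89 FPKM in siPrp19a, siPrp19b and siPrp19c. The columns did not overlap, and the change was -0.59 ± 0.09 (adjusted p = 0.0138; -0.58 in the 4 libraries, adjusted p = 0.201). POLA2, the regulatory subunit of polymerase alpha, had the lowest mean of the 55 over the 6 libraries, at 2.38, 2.06 and 2.20 FPKM in the NC columns and 1.16, 1.5 and 1.45 FPKM in the siPrp19 columns, with 105 to 217 reads a library. Its change was -0.44 ± 0.10 (adjusted p = 0.0461; -0.52 in the 4 libraries, adjusted p = 0.278), and 35.1% of its exon bases are shared with another gene on the same strand, so that its level is uncertain. POLA1, the catalytic subunit of the same complex, was at 8.63, 7.92 and 7.48 FPKM and at 8.30, 6.99 and 7.16 FPKM (-0.09 ± 0.09, adjusted p = 0.602; -0.05 in the 4 libraries, adjusted p = 0.90). POLE2, a subunit of the leading-strand polymerase, was at 5.58, 5.87 and 5.98 FPKM and at 6.66, 4.78 and 6.25 FPKM, so that the siPrp19 columns held both the highest and the lowest library (0.01 ± 0.11, adjusted p = 0.975; 0.14 in the 4 libraries, adjusted p = 0.676). POLE, its catalytic subunit, was the highest of the group, at 0.09 (adjusted p = 0.602).

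Of the clamp and its loader, RFC5 was called, though 10.6% of its exon bases lie opposite exons of WSB2 and of an unnamed gene. It also has 1 named pseudogene. It was at 19.8, 21.2 and 20.8 FPKM in the NC columns and at 15.3, 15.2 and 14.7 FPKM in the siPrp19 columns, without overlap, a change of -0.43 ± 0.06 (adjusted p = 0.0111; -0.41 in the 4 libraries, adjusted p = 0.262). PCNA, the clamp, was the most abundant of the 55, at 108, 110 and 125 FPKM and at 94.6, 98.0 and 102 FPKM. All 3 siPrp19 columns were below the NC columns, but the change of -0.21 ± 0.09 did not pass (adjusted p = 0.190; -0.24 in the 4 libraries, adjusted p = 0.60). The other loader subunits ranged from -0.32 for RFC3 (adjusted p = 0.0750) to -0.02 for RFC2, and RFC2 turned positive under the other 3 scalings in the comparison by column.

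RPA1, the large subunit of the protein that coats single-stranded DNA, passed at -0.29 ± 0.07 (adjusted p = 0.0483; -0.29 in the 4 libraries, adjusted p = 0.419), from 16.1, 16.8 and 16.7 FPKM to 14.0, 13.5 and 12.4 FPKM. FEN1 and LIG1, which trim and seal Okazaki fragments, were at -0.28 (adjusted p = 0.199) and -0.22 (adjusted p = 0.0940). RPA2 was at 0.00 ± 0.11, with a 95% interval of -0.27 to 0.27. Of the genes that protect the fork, TIMELESS passed at -0.34 ± 0.07 (adjusted p = 0.0391; -0.35 in the 4 libraries, adjusted p = 0.378), from 21.7, 19.5 and 18.8 FPKM to 16.0, 15.4 and 15.3 FPKM. CLSPN (claspin, which relays the checkpoint signal) was at 9.30, 9.26 and 7.02 FPKM in the NC columns and at 9.11, 7.86 and 8.09 FPKM in the siPrp19 columns (-0.02 ± 0.12, adjusted p = 0.942; 0.08 in the 4 libraries, adjusted p = 0.870). NCc was the lowest library for CLSPN and the groups overlapped.

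**Figure D3:**
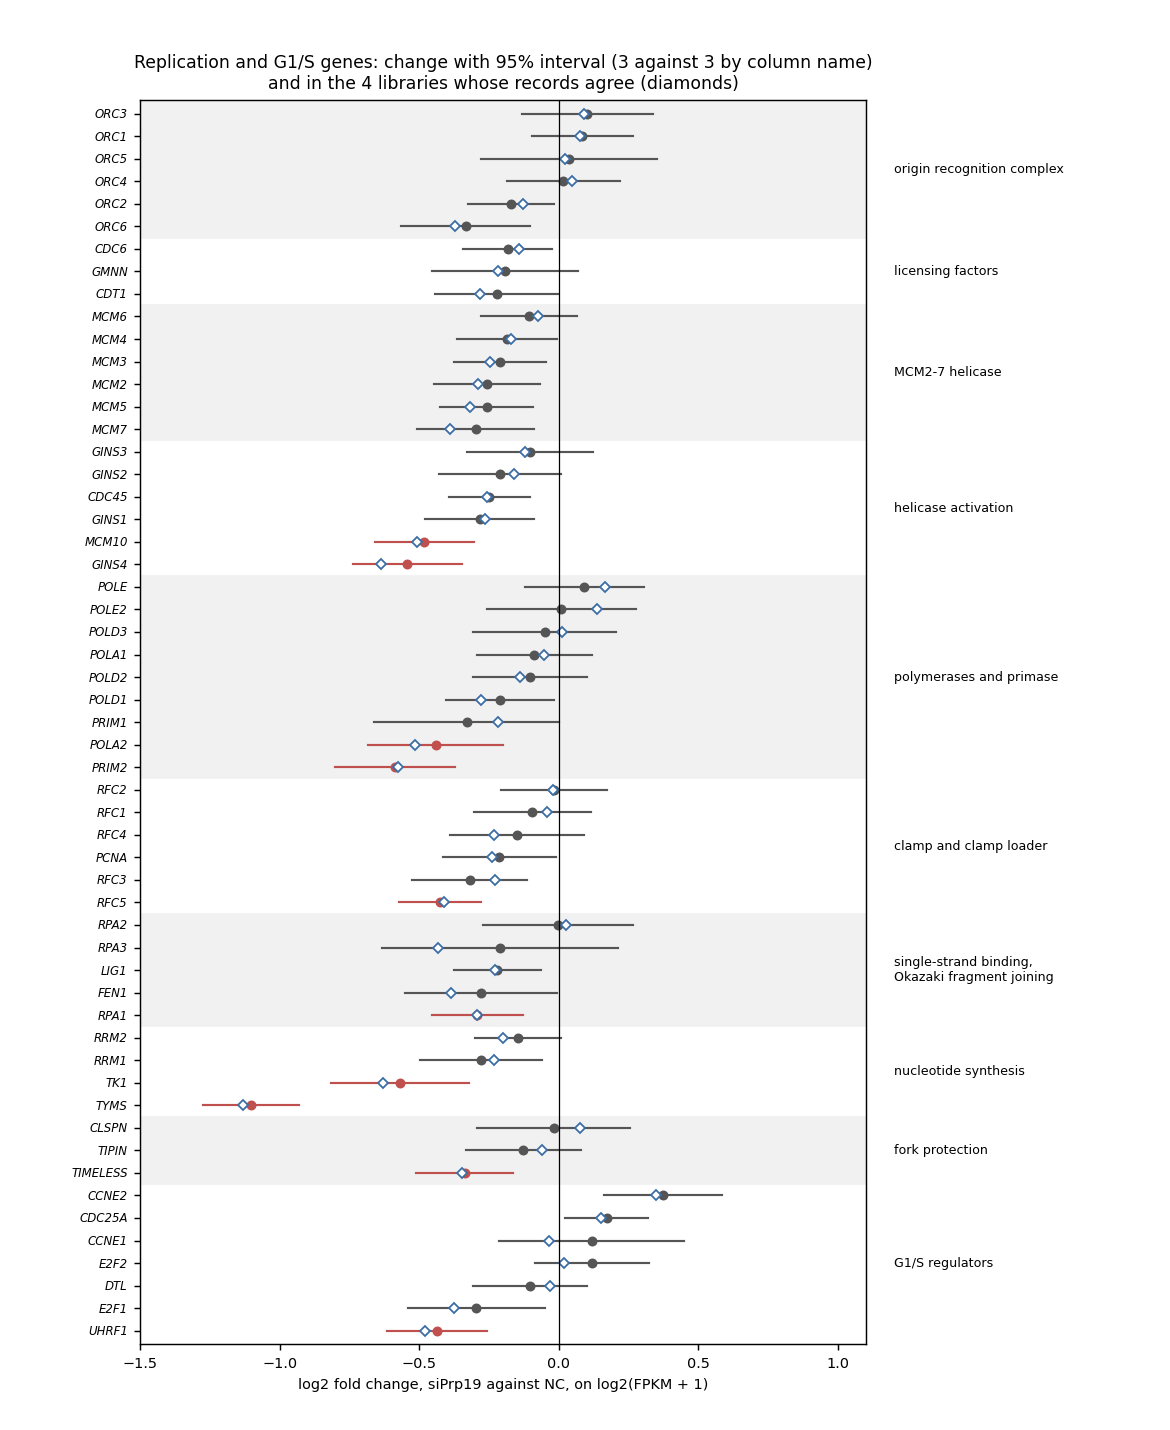
Log2 fold change of siPrp19 over NC (horizontal axis, on log2(FPKM + 1)) for each of the 55 genes, grouped by role. Circles and lines are estimates and 95% intervals by column name, red where the adjusted p is under 0.05. Diamonds are estimates from the 4 libraries whose records agree on the group. The 10 red genes lie between -1.10 and -0.29, and CCNE2, at 0.37, is the furthest to the right.

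The regulators of the G1/S transition differed in direction among themselves. UHRF1, which recruits maintenance DNA methylation to new DNA, was the gene of this group that was called: it was at 31.9, 31.4 and 29.8 FPKM in NCa, NCb and NCc and at 21.1, 24.4 and 22.6 FPKM in siPrp19a, siPrp19b and siPrp19c (-0.44 ± 0.08, adjusted p = 0.0190; -0.48 in the 4 libraries, adjusted p = 0.228). E2F1, an activator of S-phase genes, was at 24.9, 26.6 and 27.2 FPKM and at 18.3, 24.1 and 21.4 FPKM (-0.30 ± 0.10, adjusted p = 0.143; -0.37 in the 4 libraries, adjusted p = 0.371). Neither gene overlapped between the columns, and siPrp19a was the lowest library for both.

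CCNE2 (cyclin E2, which activates CDK2 at the start of S phase) was at 2.34, 2.21 and 1.92 FPKM in the NC columns and at 3.07, 3.29 and 2.89 FPKM in the siPrp19 columns. Every siPrp19 column was above every NC column, at 0.37 ± 0.09 with an adjusted p of 0.0519, just outside the threshold; limma-voom on the recovered reads, quantile normalization and the fit without a mean-variance trend each called it. By voom 8 of the 55 genes were called lower and 1 higher, beside 4.48% and 5.49% of all genes. In the 4 libraries CCNE2 was at 0.35 (adjusted p = 0.411), and 37.1% of its exon bases lie opposite exons of INTS8 and of an unnamed gene. CDC25A, the phosphatase that activates CDK2, was at 5.83, 5.6 and 6.0 FPKM and at 6.5, 6.67 and 6.84 FPKM, also without overlap (0.17 ± 0.06, adjusted p = 0.157; 0.15 in the 4 libraries, adjusted p = 0.645).

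CCNE1 (cyclin E1) was at 7.53, 7.02 and 10.5 FPKM in the NC columns and at 8.34, 9.77 and 8.96 FPKM in the siPrp19 columns (0.12 ± 0.14, adjusted p = 0.669; -0.04 in the 4 libraries, adjusted p = 0.950). E2F2 was at 3.83, 3.27 and 4.03 FPKM and at 4.04, 4.31 and 3.95 FPKM (0.12 ± 0.09, adjusted p = 0.464; 0.02 in the 4 libraries, adjusted p = 0.961). DTL, the adaptor by which a ubiquitin ligase destroys CDT1 in S phase, was at 16.8, 17.8 and 15.8 FPKM and at 17.3, 14.8 and 14.6 FPKM (-0.10 ± 0.09, adjusted p = 0.525; -0.03 in the 4 libraries, adjusted p = 0.941). All 3 overlapped between columns, and the intervals of CCNE1 (-0.21 to 0.45) and DTL (-0.31 to 0.10) hold changes in either direction.

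**Figure D4:**
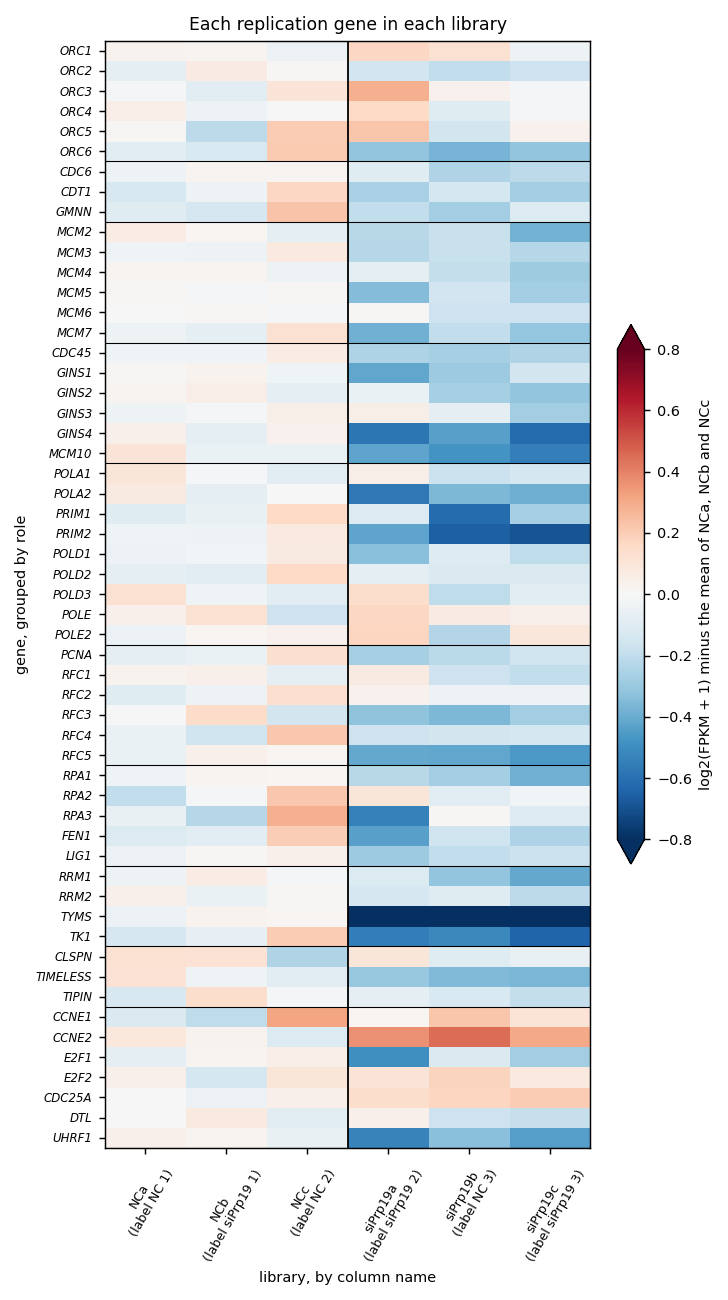
Each of the 55 genes (rows, grouped by role and separated by lines) in each library (columns, with the sample label in brackets), as log2(FPKM + 1) minus the mean of NCa, NCb and NCc; red is higher, blue is lower, and values beyond 0.8 take the end colour. TYMS, GINS4, PRIM2 and TK1 are blue in all 3 siPrp19 columns, including siPrp19b, and CCNE2 is red in all 3.

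Ordered by level, the genes ranged from a mean of 1.79 FPKM for POLA2 to 106 FPKM for PCNA over the 6 libraries, and 33 of 55 were at 10 FPKM or more. TK1, MCM7, FEN1, POLD2 and MCM3 followed PCNA at means of 87.9 to 54.2 FPKM, and CCNE2 (2.62 FPKM) and GINS4 (3.60 FPKM) were next to POLA2 at the low end. For 44 of the 54 neighbouring pairs in the order of NC levels, the 3 NC values overlapped, so most neighbours could not be ranked. Levels of 23 genes hold exon bases that another gene shares, on the opposite strand for 18, and 11 genes have a named pseudogene.

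Promoters of the list were compared for the words bound by E2F factors, since the list mixes E2F targets that were called with many that were not. RefSeq windows of 300 bases (250 before to 50 after each start, GRCh38.p14) were found for 48 of the 55 genes; none was found for MCM4, MCM5, GINS4, POLD3, RPA2, RPA3 and CCNE2. At least 1 of 3 words (TTTCCCGC, TTTGGCGC or TTTCGCGC, on either strand, which can overlap each other) was present for 26 of the 48 genes (54.2%), against 902 of 27305 genes in all (3.30%). Counted by window, 27 of 62 windows of the list held a word, against 2.74% of all 35116 windows. Both backgrounds take in every gene with a window, not only the genes tested for expression that gave the shares above. The list was chosen by role and includes E2F targets, so an excess of these words was built into the choice. No conclusion is drawn from the excess. Of 9 called genes with a window 3 held a word, and of 39 genes not called 23 did. Positions are counted from the RefSeq start, so the TYMS word lies before that start but inside the gene span given above. The words are shown in capitals for the 3 called genes and for genes that were not called from the helicase, the clamp and the G1/S regulators, each as 30 bases on the strand of the gene:
TYMS, chr18:657603-657632, plus strand, word 39 bases before the start: gcgggacggccGCGGGAAAaggcgcgcgga
UHRF1, chr19:4909476-4909505, plus strand, 14 bases before: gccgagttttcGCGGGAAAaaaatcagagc
POLA2, chr11:65261898-65261927, plus strand, 53 bases before: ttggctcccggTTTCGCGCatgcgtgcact
MCM7, chr7:100101388-100101417, minus strand, 9 bases before: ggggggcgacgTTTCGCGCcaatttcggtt
PCNA, chr20:5126663-5126692, minus strand, 59 bases before: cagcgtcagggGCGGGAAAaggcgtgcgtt
E2F1, chr20:33686387-33686416, minus strand, 20 bases before: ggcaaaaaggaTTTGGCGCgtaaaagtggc
CDC25A, chr3:48188443-48188472, minus strand, 44 bases before: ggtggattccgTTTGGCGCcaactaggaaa

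TYMS, UHRF1 and PCNA carry the same word, read as GCGGGAAA on the gene's strand, and had log2 fold changes of -1.10, -0.44 and -0.21. UHRF1 also holds TTTCGCGC and MCM7 also holds GCGGGAAA, at sites not printed above. E2F1 and CDC25A share TTTGGCGC and were at -0.30 and 0.17, and neither was called. Any part of these words in the changes was not tested. A word in a window is a match of letters, not a measured binding site, and no binding was measured in these libraries.

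A further 42 replication and G1/S genes outside the list were examined in the same fit, of which 40 passed the filter on level (MCM9 and RNASEH2A did not). By column name 7 were lower and 1 higher, beside the 5.37% and 2.57% of all genes, with a median of -0.15. Of the 40, 33 were negative (54% of all genes). The lower genes with the smallest p were SKP2, an F-box protein of the ligase that degrades p27 (from 40.3, 40.3 and 36.7 to 24.5, 21.4 and 21.2 FPKM; -0.78, adjusted p = 0.00463), DUT, which removes dUTP and has 8 named pseudogenes (-0.82, adjusted p = 0.0108), and CDK2, the partner of cyclin E (-0.50, adjusted p = 0.0140). CDKN1A (p21, an inhibitor of CDK2) was the gene that was higher, from 15.1, 14.9 and 16.0 to 20.4, 24.6 and 28.0 FPKM (0.62, adjusted p = 0.0216). Exons on the opposite strand cover 14.5% of the exon bases of DUT (DUT-AS1), 16.8% of those of CDK2 (PMEL and an unnamed gene) and 4.79% of those of CDKN1A. In the 4 libraries 0 of the 40 passed the limma test, at -0.73 for SKP2 (adjusted p = 0.143) and 0.59 for CDKN1A (adjusted p = 0.269). At an unadjusted p under 0.05, 6 were lower and 1 higher there (7.86% and 4.42% of all genes). Limma-voom called SKP2 (adjusted p = 0.0422) and DUT (adjusted p = 0.0154) lower there and 0 higher (1.17% and 0.758% of all genes). Of 6 further genes of nucleotide metabolism, not all of which act in synthesis, 3 were called lower by column name (5.37% of all genes). These were DUT, SAMHD1 and CTPS1, beside TYMS and TK1 of the list. RRM2B, the p53-induced form of the reductase subunit, was at 0.22 (adjusted p = 0.164).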

How the data were processed

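The authors aligned reads to hg38 with HISAT2 2.0.5 and counted them with featureCounts 1.5.0-p3, per the submitters' processing notes, and deposited FPKM values for each gene and library. The annotation release, strand use and the source of replicates beyond their description as biological in the study's methods are not given in the sources used here. Identifiers matched GENCODE 29 in full. FPKM values came out as whole reads for 100% of values within 0.01 reads, and limma-voom on these reads called 1367 genes by column name. Genes with a mean of at least 1 FPKM were tested on log2(FPKM + 1) with limma 3.58.1 (R 4.3.3, mean-variance trend, two-sided, Benjamini-Hochberg over all 13718 genes), a scale that understates the change of low genes. Scripts were checked on simulated data. No untransfected control was used here. Members and gene lists were chosen with earlier results of these data known. Genes given with all library values were those fixed by role (CDC6, CDT1, GMNN, MCM2, MCM7, MCM10, ORC1, POLA1, POLE2, PCNA, RRM2, TYMS, TK1, CLSPN, CCNE1, CCNE2, E2F1, E2F2, CDC25A, DTL, UHRF1) and the members with the 5 smallest p past the threshold; POLA2, RPA1 and TIMELESS passed and are named by the rule, with their library values added after these were seen. The lowest or highest gene of a role group (ORC6, MCM6, POLE, RFC2, RPA2 and others) was named by the rule, as were, of the other lists, up to 3 genes a direction by smallest p (SKP2, DUT, CDK2, CDKN1A). Genes named with values outside the rule (ORC2, CDC45, GINS1, RFC3, RPA3, FEN1, LIG1, RRM1, SAMHD1, CTPS1, RRM2B) were chosen after their values were seen, as were the library values of SKP2 and CDKN1A. Alternatives were another pseudocount (0.1), no filter, equal FPKM sums, quantile normalization, no trend, voom, a replicate block, close pairs averaged and leaving out each library. Some marker genes are not reported here.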

Additional observations from a re-analysis of the deposited data

How the results depend on the processing

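By column name, genes called moved from 1089 to 679 with equal FPKM sums, 512 without the filter on low values, 2 with close pairs averaged (chosen after seeing the data) and 253 to 1354 with a library left out. Of the 55 genes, those called lower moved from 10 to 6, 6 and 0 under the same settings and to 1 to 9 with a library left out; 1 was called higher (CCNE2) with quantile normalization, voom and no mean-variance trend. The higher share of calls was 32.4% (353 of 1089), against 46.1% with quantile normalization and 55.1% with voom. The median of the 55 moved from -0.21 to -0.17 with equal sums, -0.11 with quantile normalization and -0.14 with voom, and spanned -0.23 to -0.17 with a library left out. The median over all genes moved too, from -0.020 to 0.015, 0.012 and 0.055 with equal sums, quantile normalization and voom. In the 4 libraries, genes called moved from 2 to 0 without the filter, 264 with voom and 0 to 70 with a library left out; members called lower moved from 0 to 2 with voom and 0 to 1 with a library left out (TYMS, without siPrp19c). The median of the 55 there moved from -0.22 to -0.17, -0.12 and -0.16 with equal sums, quantile normalization and voom, and spanned -0.25 to -0.14 with a library left out. That over all genes moved from -0.024 to 0.018, 0.015 and 0.054 with the same scalings. PRPF19 there was at -2.15 (adjusted p = 0.286) without the filter and at -2.23 to -2.07 with a library left out, not past the threshold without either NC library. Signs turned for genes far from the threshold. By column name CLSPN was at 0.0695 with close pairs averaged, 0.0179 with equal sums, 0.0237 with quantile normalization, 0.0612 with voom and -0.139 to 0.0422 with a library left out, and POLE2 spanned -0.0730 to 0.131. In the 4 libraries POLA1 was at 0.0222 with voom, CCNE1 at 0.0113, 0.0146 and 0.0428 and DTL at 0.0150, 0.0558 and 0.0464 with equal sums, quantile normalization and voom; with a library left out ORC1 spanned -0.0267 to 0.178, POLA1 -0.147 to 0.0418, CLSPN -0.104 to 0.258, CCNE1 -0.249 to 0.178, E2F2 -0.00922 to 0.0482 and DTL -0.146 to 0.0811. The cause of these changes was not tested. Of 761 recomputed values 734 kept their sign.

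Replicate letters did not pair all the libraries: deviations of same-letter columns correlated at 0.13, -0.05 and 0.20 for a, b and c. The columns of letters a and c each correlated best with their own letter. NCb instead correlated best with siPrp19a (0.13), and siPrp19b with NCc (0.07). In the sample labels each close pair shares a replicate number, 1 for NCa and NCb and 3 for siPrp19b and siPrp19c. Deviations from the labelled groups correlated at 0.39, -0.17 and 0.32 between libraries of the same number. With the letter as a replicate block, 928 genes and 7 of the 55 were called by column name (POLA2, RPA1 and TIMELESS were lost). With the labelled number as the block, 0 were called by label. With 2 libraries of a group, the precision of the 4-library comparison was limited, and each leave-one-out fit there left a lone library that was assumed to vary like the other group.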
